A study of Homo sapiens with 12 samples.

Results

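The 5 lysyl oxidases (LOX, LOXL1, LOXL2, LOXL3 and LOXL4) and the 3 lysyl hydroxylases (PLOD1, PLOD2 and PLOD3) are the collagen cross-linking enzymes followed here in U251, an established human glioblastoma cell line. They were chosen by gene symbol, as the members of these enzyme families, and no measured value enters the rule. Earlier results of these data were, however, known when the families were chosen. All 8 were found among the 20289 genes of the count table, and all 8 were among the 12821 genes with enough counts to be tested. Poly(A) RNA had been sequenced from 12 libraries in 4 groups of 3. A lentivirus had brought in a short hairpin RNA that was either a control (shCtrl) or directed at CD44 (shCD44), which encodes a surface receptor that binds the matrix polymer hyaluronan. The cells then received DMSO, the solvent, or 50 µM temozolomide, a drug that alkylates DNA and is given for glioblastoma, for 24 h. The 2 groups without drug are called control DMSO and knockdown DMSO, and the 2 with drug control temozolomide and knockdown temozolomide. The labels list the control cells as wild type. Titles name shCtrl for control DMSO and only NC for control temozolomide, but the descriptions of the control DMSO samples also read NC and the series text puts a control or CD44 hairpin virus in all cells, so both were read as control-hairpin cells. How many hairpin sequences were used, and whether a clone or a pool of cells was sequenced, is not given in the sources used here. Nothing says that the 3 libraries of a group came from separate cultures, so the p-values measure the spread between these libraries, which may be technical.

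Lysyl hydroxylases are iron- and 2-oxoglutarate-dependent enzymes of the endoplasmic reticulum that hydroxylate lysines of procollagen chains before the triple helix folds, and PLOD2 is known for acting on the telopeptide lysines at the chain ends. Lysyl oxidases are copper-dependent amine oxidases that work mainly outside the cell and turn lysine and hydroxylysine side chains of collagen and elastin into reactive aldehydes, from which the cross-links form. Members of both families are known to be induced by hypoxia and by TGF-beta in several tissues.

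Windows of 250 bases before a RefSeq start site (GRCh38.p14) were held by the sequence table for 7 members: LOX, LOXL1, LOXL3, LOXL4, PLOD1, PLOD2 and PLOD3. The table lists 3 starts for LOX and 2 for LOXL3. The 4 windows below belong to LOX and PLOD1, which fell with the knockdown under both treatments, to LOXL4, which fell with temozolomide, and to PLOD2, which shares a motif with LOX. They run 5′ to 3′ on the gene's strand, from chr5:122078260-122078509 (minus strand) for LOX, chr3:146161185-146161434 (minus) for PLOD2, chr10:98268195-98268444 (minus) for LOXL4 and chr1:11934467-11934716 (plus) for PLOD1. Capitals mark ACGTG, the core of the hypoxia response element, or GGGCGG, the core of the GC box, on either strand, so that CACGT and CCGCCC are the reverse-strand matches.
LOX: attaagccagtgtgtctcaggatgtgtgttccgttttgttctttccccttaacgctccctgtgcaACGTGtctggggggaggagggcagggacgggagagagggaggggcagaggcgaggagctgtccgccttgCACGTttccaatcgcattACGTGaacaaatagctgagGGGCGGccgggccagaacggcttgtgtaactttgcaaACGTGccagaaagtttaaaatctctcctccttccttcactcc
PLOD2: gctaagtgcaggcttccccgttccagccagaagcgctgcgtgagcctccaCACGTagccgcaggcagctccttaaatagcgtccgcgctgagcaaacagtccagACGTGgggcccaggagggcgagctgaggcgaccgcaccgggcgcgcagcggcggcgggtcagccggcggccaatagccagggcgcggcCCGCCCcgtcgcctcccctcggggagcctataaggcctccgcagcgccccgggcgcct
LOXL4: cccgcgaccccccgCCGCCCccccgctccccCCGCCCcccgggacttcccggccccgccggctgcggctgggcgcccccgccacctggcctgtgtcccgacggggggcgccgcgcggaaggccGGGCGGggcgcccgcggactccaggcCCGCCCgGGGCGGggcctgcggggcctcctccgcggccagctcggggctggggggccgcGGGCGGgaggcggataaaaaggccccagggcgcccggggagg
PLOD1: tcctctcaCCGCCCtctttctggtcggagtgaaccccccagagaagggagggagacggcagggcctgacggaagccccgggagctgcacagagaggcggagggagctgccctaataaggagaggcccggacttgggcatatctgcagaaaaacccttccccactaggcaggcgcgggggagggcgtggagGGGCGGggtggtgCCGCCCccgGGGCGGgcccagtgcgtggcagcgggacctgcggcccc
The LOX window printed held 4 ACGTG matches and the PLOD2 window 2, and the other windows printed held 0. The LOX windows at the other listed starts (chr5:122077224-122077473 and chr5:122077175-122077424) overlap each other. Each of them held 1 ACGTG and 0 GGGCGG. Of 35116 windows of the same length, 18.5% held at least 1 ACGTG, 7.52% at least 2 and 0.669% at least 4. The LOXL4 window held 6 GGGCGG matches and the PLOD1 window 4, where 42.6% of all windows held at least 1, 7.63% at least 4 and 2.22% at least 6. G and C made up 86.4% of the LOXL4 window and 70.4% of the PLOD1 window. The set of all windows was not matched for this. The PLOD3 window, not printed, held 3 GGGCGG matches, with 69.2% G and C. A CACGTG counts once on each strand. These matches describe letters in the window and no binding was measured.

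CD44, the targeted transcript, checked the labels. Its level in counts per 1e6 counts after scaling of the libraries (CPM) was 1091 ± 43.4 (SD, n = 3) in control DMSO, 420 ± 1.03 in knockdown DMSO, 821 ± 25.8 in control temozolomide and 326 ± 6.60 in knockdown temozolomide, with no overlap between knockdown and control libraries under either treatment. Totals per library were 13.5 to 24.8 in units of 1e6 counts, and 3 counts correspond to 0.121 to 0.222 CPM. Of the glioma markers, VIM, SOX2 and NES were present (3377, 390 and 42.6 CPM in control DMSO), whereas OLIG2 and AQP4 were at 0 in every control library, and the group means were 0.417 to 1.27 CPM for GFAP and 0.169 to 0.319 CPM for S100B. Summed levels of the marker lists of other cell types differed between the groups. For 6 fibroblast and mural markers they were 23.7 to 26.1 CPM in control DMSO, 44.7 to 53.5 in knockdown DMSO, 20.8 to 22.6 in control temozolomide and 38.0 to 40.4 in knockdown temozolomide, mostly THY1, with DCN at group means of 0 to 0.0239 CPM. For 4 epithelial markers they were 592 to 626, 344 to 382, 466 to 488 and 243 to 275 CPM in the same order, nearly all from KRT8 and KRT14. For 4 endothelial markers they were 41.8 to 47.2, 28.5 to 29.4, 19.7 to 23.7 and 13.5 to 14.6 CPM, mostly CDH5. For 4 leukocyte markers they were 15.5 to 17.0, 22.9 to 25.9, 13.7 to 16.2 and 24.0 to 27.3 CPM, mostly CD68 (means of 15.6 CPM in control DMSO and 24.0 in knockdown DMSO), with AIF1 and CD3E at 0 in all 12 libraries. For 4 neuronal markers they were 4.44 to 4.52, 8.05 to 10.8, 4.05 to 4.36 and 7.98 to 9.19 CPM, mostly SYT1. The part of these marker differences in the results below was not tested. In bulk RNA, fewer cells of a type and less RNA per cell cannot be told apart.

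Levels can be compared between genes per transcript length, in the deposited FPKM. In control DMSO the lysyl hydroxylases were the more abundant family, with PLOD1 at 143 ± 4.71 FPKM (SD, n = 3), PLOD2 at 81.4 ± 4.21 and PLOD3 at 29.9 ± 0.560. Among the oxidases LOXL2 led at 41.0 ± 1.26 FPKM, followed by LOXL4 at 21.9 ± 0.615, LOX at 8.56 ± 0.223, LOXL1 at 1.48 ± 0.243 and LOXL3 at 0.283 ± 0.0651. The order of group means was PLOD1, PLOD2, LOXL2, PLOD3, LOXL4, LOX, LOXL1 and LOXL3 in all 4 groups. The libraries of neighbours in that order overlapped only for LOXL2 and PLOD3 in control temozolomide, at 29.6 ± 2.42 and 27.1 ± 0.871 FPKM. LOX, the founding member of its family, supplied a small share of the summed oxidase FPKM: 11.7% ± 0.274 in control DMSO, 6.75% ± 0.530 in knockdown DMSO, 15.2% ± 0.736 in control temozolomide and 7.65% ± 0.990 in knockdown temozolomide. LOXL2 supplied 56.0% ± 0.391, 59.5% ± 2.08, 55.5% ± 1.25 and 67.5% ± 3.46 in the same order. The summed FPKM of the 5 oxidases was 73.1 ± 1.87 in control DMSO, 75.8 ± 3.50 in knockdown DMSO, 53.4 ± 3.22 in control temozolomide and 62.0 ± 4.57 in knockdown temozolomide. That of the 3 hydroxylases was 254 ± 2.56, 223 ± 3.49, 239 ± 3.38 and 225 ± 3.48. The deposited FPKM were used without the scaling between libraries that CPM received. Relative to scaled counts, log2(FPKM + 1) moved the median log2 fold change of all genes by 0.028 for the knockdown under DMSO. For temozolomide the shift was 0.053 in control cells and 0.049 in knockdown cells. Its part in these sums was not tested.

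**Figure D1:**
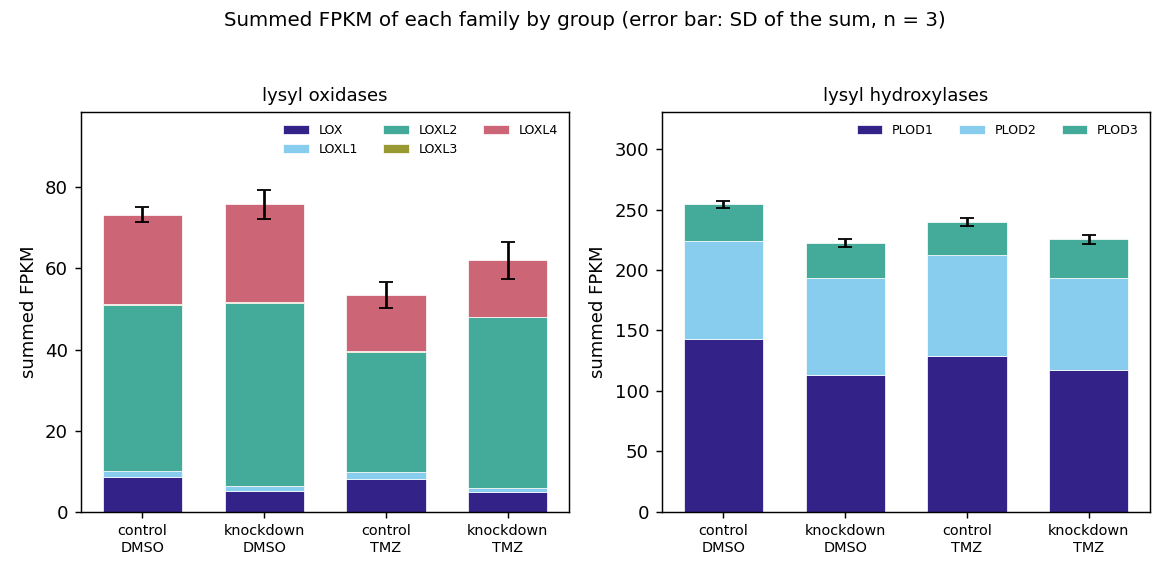
Summed FPKM of the lysyl oxidases (left) and lysyl hydroxylases (right), y axis, in the 4 groups, x axis, with each gene's mean as a coloured segment and the SD of the sum over 3 libraries as the error bar. The oxidase bar is lower in both temozolomide groups (53.4 and 62.0 FPKM) than in the DMSO groups (73.1 and 75.8), and LOXL2 and LOXL4 fill most of it; LOXL3 is too low to be seen.

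The first comparison asked what the CD44 hairpin changed in cells given DMSO. LOX fell by 39.3%, PLOD1 fell by 22.2% and LOXL2 rose by 12.1%, and the remaining 5 did not pass the test. Thus the quasi-likelihood test of edgeR, at a threshold of 0.05 on p-values adjusted by Benjamini and Hochberg's method, called 3 of the 8 transcripts, 1 higher and 2 lower, where 42.6% of all genes tested were called. Their median log2 fold change was -0.13, against 0.00 over all genes tested. The share of members called is close to that background.

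LOX (ENSG00000113083, GRCh38 chr5:122063195-122078360, minus strand) had the largest knockdown difference of the 8. Its 3 control DMSO libraries were at 37.4, 37.8 and 34.2 CPM and its knockdown DMSO libraries at 22.7, 23.0 and 20.8 CPM. The control temozolomide libraries were at 33.3, 30.2 and 34.3 CPM and the knockdown temozolomide libraries at 15.7, 18.9 and 19.2 CPM. All 6 knockdown libraries lay below all 6 control libraries. The log2 fold change of the knockdown was -0.72 (SE 0.08, edgeR adjusted p = 1.6e-07) under DMSO and -0.86 (SE 0.08, adjusted p = 1.6e-08) under temozolomide. Over the 24 alternative analyses it ran from -0.79 to -0.65 and from -0.91 to -0.67, and was called in all of them. In control cells the libraries with and without temozolomide overlapped, at a log2 fold change of -0.16 (SE 0.07, adjusted p = 0.112), which was called only with a correction for GC content (-0.24, adjusted p = 0.0122). In knockdown cells the temozolomide libraries were all lower, at -0.30 (SE 0.08, adjusted p = 0.0120). That call was lost without knockdown temozolomide library 1, the lowest of the 12 (-0.21, adjusted p = 0.0774), and in the fits to FPKM (-0.11 to -0.09). Of the gene's exonic bases, 138 overlap SRFBP1 on the other strand, and the counting is not stated to use strand.

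LOXL2 (ENSG00000134013, chr8:23297189-23425328, minus strand), an oxidase with scavenger-receptor domains known for cross-linking basement membrane collagen IV, went the other way with the knockdown. Control DMSO libraries were at 126, 129 and 129 CPM and knockdown DMSO libraries at 139, 147 and 145 CPM. Control temozolomide libraries were at 103, 87.0 and 97.2 CPM and knockdown temozolomide libraries at 125, 117 and 129 CPM. Knockdown libraries were above the control libraries of the same treatment without overlap, and temozolomide libraries were below the DMSO libraries of the same cells. The log2 fold change of the knockdown was 0.16 (SE 0.05, edgeR adjusted p = 0.0104) under DMSO and 0.36 (SE 0.05, adjusted p = 7.4e-06) under temozolomide. That of temozolomide was -0.41 (SE 0.05, adjusted p = 3.8e-06) in control cells and -0.22 (SE 0.05, adjusted p = 0.00270) in knockdown cells. In the fits to FPKM the knockdown under DMSO (0.13 to 0.14) and temozolomide in knockdown cells (-0.11) were no longer called. Knockdown with temozolomide was near control DMSO, with overlapping libraries and a log2 fold change of -0.06 (SE 0.05, adjusted p = 0.367). Of LOXL2's exonic bases, 120 are shared with ENTPD4 on the same strand and 178 with AC090197.1 on the other strand.

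LOXL4 (ENSG00000138131, chr10:98247690-98268250, minus strand), another oxidase with scavenger-receptor domains, was lower with temozolomide in both kinds of cell. Control DMSO libraries were at 82.7, 83.3 and 78.9 CPM and knockdown DMSO libraries at 86.1, 88.4 and 87.3 CPM. Control temozolomide libraries were at 50.0, 46.6 and 48.2 CPM and knockdown temozolomide libraries at 47.6, 52.0 and 45.7 CPM. The 6 temozolomide libraries were all below the 6 DMSO libraries. The fall with the drug was 40.7% in control cells (log2 fold change -0.75, SE 0.05, edgeR adjusted p = 5.1e-10) and 44.3% in knockdown cells (-0.84, SE 0.05, adjusted p = 8.5e-11), the largest temozolomide changes of the 8 in each. Both were called in all 24 alternative analyses. Under DMSO the knockdown libraries were slightly higher without overlap, at 0.10 (SE 0.05, adjusted p = 0.0949), which was called with library totals as the scaling (0.14) and with the GC correction (0.17). Under temozolomide the knockdown difference was 0.01 (SE 0.05, 95% interval -0.10 to 0.11, adjusted p = 0.925). LOXL4 shares 152 exonic bases with AL139241.1 on the other strand.

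LOXL1, the oxidase best known for elastic fibres (ENSG00000129038, chr15:73925989-73952137, plus strand), was low, with 35 to 110 counts per library. Its group means were 3.62 ± 0.612 CPM (SD, n = 3) in control DMSO, 3.14 ± 0.966 in knockdown DMSO, 3.85 ± 0.498 in control temozolomide and 2.74 ± 0.252 in knockdown temozolomide. No comparison of it was called by edgeR. Under temozolomide the 3 knockdown libraries lay below the 3 control libraries (log2 fold change -0.49, SE 0.21, adjusted p = 0.0651), and this was called without knockdown DMSO library 2 (-0.50) or 3 (-0.50), without a filter on low counts (-0.51) and with only those groups in the fit (-0.50). LOXL3 (ENSG00000115318, chr2:74532414-74555690, minus strand) had 6.1 to 16.22 estimated counts per library, and its group means ran from 0.458 ± 0.0584 CPM in knockdown temozolomide to 0.730 ± 0.105 in control temozolomide. Its knockdown difference under temozolomide was -0.63 with a 95% interval of -1.41 to 0.16 (SE 0.38, edgeR adjusted p = 0.192). In limma fits to FPKM it was called (-0.25 with a pseudocount of 1, -0.85 with 0.1). Its FPKM was 0.11 to 0.17 in knockdown DMSO and 0.22 to 0.35 in control DMSO, while the CPM of those groups overlapped. LOXL3 shares 625 exonic bases with HTRA2 and 216 with DOK1, both on the other strand, and LOXL1 shares 335 with LOXL1-AS1.

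**Figure D2:**
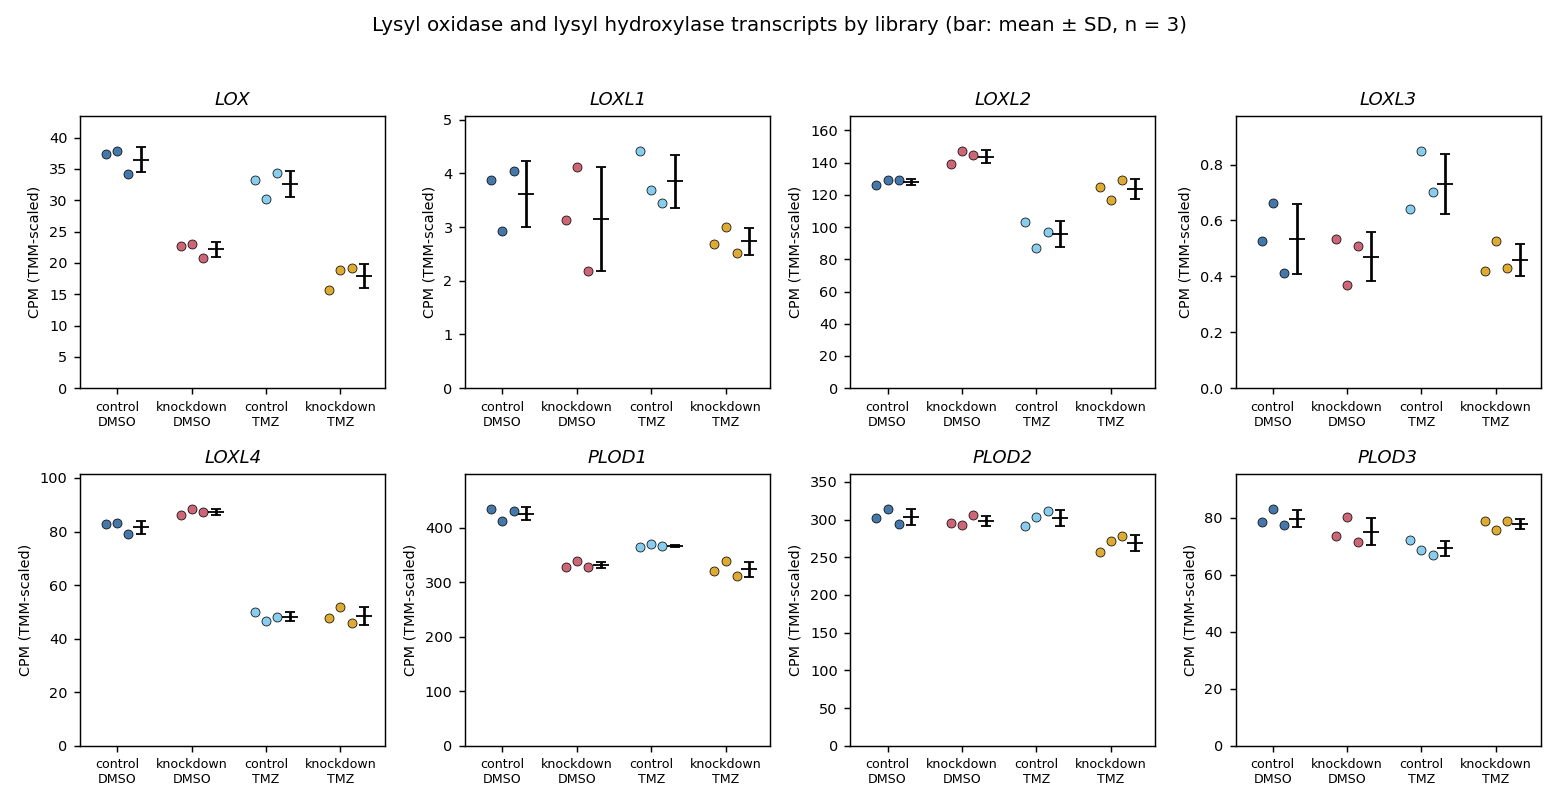
Scaled CPM (y axis, from 0) of the 8 transcripts in each of the 12 libraries (points), by group (x axis), with the mean ± SD of 3 libraries beside them. LOX is low in the 6 knockdown libraries, LOXL4 is low in the 6 temozolomide libraries, and PLOD1 is highest in control DMSO (412 to 434 CPM).

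PLOD1 (ENSG00000083444, chr1:11934205-11975538, plus strand), the hydroxylase whose loss causes the kyphoscoliotic form of Ehlers-Danlos syndrome, was the most abundant of the 8 in FPKM. Control DMSO libraries were at 434, 412 and 431 CPM and knockdown DMSO libraries at 328, 338 and 328 CPM. Control temozolomide libraries were at 364, 369 and 366 CPM and knockdown temozolomide libraries at 321, 338 and 311 CPM. Control DMSO stood above every other group, and the 2 knockdown groups overlapped. The knockdown lowered PLOD1 under DMSO (log2 fold change -0.36, SE 0.03, edgeR adjusted p = 2.9e-08) and under temozolomide (-0.18, SE 0.03, adjusted p = 0.000240). Temozolomide lowered it in control cells (-0.22, SE 0.03, adjusted p = 7.9e-05), whereas in knockdown cells the value was -0.03 (SE 0.03, adjusted p = 0.543). The 3 calls held in all 24 alternative analyses.

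PLOD2 (ENSG00000152952, chr3:146069440-146163653, minus strand) differed little between groups. Control DMSO libraries were at 302, 314 and 294 CPM and knockdown DMSO libraries at 295, 293 and 306 CPM. Control temozolomide libraries were at 291, 304 and 311 CPM and knockdown temozolomide libraries at 257, 271 and 278 CPM. The knockdown temozolomide libraries were the 3 lowest, and the other groups overlapped. The knockdown difference was -0.02 (SE 0.04, edgeR adjusted p = 0.630) under DMSO and -0.17 (SE 0.04, adjusted p = 0.00124) under temozolomide. The temozolomide difference was -0.01 (SE 0.04, adjusted p = 0.887) in control cells and -0.15 (SE 0.04, adjusted p = 0.00663) in knockdown cells. Both calls were lost in the fits to FPKM (-0.13 to -0.12 and -0.07), and the latter also with library totals as the scaling (-0.09). Its longest transcript has a GC content of 34.4%, the lowest of the 8, and with the GC correction the differences in the first comparison (-0.14) and in control cells (-0.16) were called.

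PLOD3 (ENSG00000106397, chr7:101205977-101218420, minus strand), which also carries collagen glycosyltransferase activity, had a GC content of 61.7%. Control DMSO libraries were at 78.4, 83.1 and 77.5 CPM and knockdown DMSO libraries at 73.6, 80.4 and 71.6 CPM. Control temozolomide libraries were at 72.2, 68.6 and 67.1 CPM and knockdown temozolomide libraries at 79.0, 75.9 and 79.0 CPM. Control temozolomide was the lowest group, and its libraries overlapped only those of knockdown DMSO. PLOD3 was lower with temozolomide in control cells (-0.20, SE 0.05, edgeR adjusted p = 0.00418) and higher with the knockdown under temozolomide (0.16, SE 0.05, adjusted p = 0.00865). The former was lost with the GC correction (-0.11, adjusted p = 0.0938) and in the unfiltered FPKM fit (-0.13). Under DMSO the knockdown difference was -0.08 (SE 0.05, adjusted p = 0.179), called without knockdown DMSO library 2 (-0.13). PLOD3 shares 429 exonic bases with ZNHIT1 on the other strand.

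GC content moved with the groups. The mean log2 level of genes whose longest transcript had over 60% GC, less that of genes under 40%, each gene taken relative to its mean over all libraries, was 0.07 to 0.21 in the control DMSO libraries and -0.10 to -0.04 in the knockdown DMSO libraries. With temozolomide it was -0.13 to 0.04 in control libraries and -0.12 to 0.07 in knockdown libraries. Its part in the results was not tested beyond the correction. With the correction 5 of the 8 transcripts were called for the knockdown under DMSO, adding LOXL4 and PLOD2 to LOX, LOXL2 and PLOD1. Of all 12782 genes tested with it, 5527 were called.

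Under temozolomide the same hairpin comparison called 5 of the 8, with LOXL2 and PLOD3 higher and LOX, PLOD1 and PLOD2 lower, where 42.3% of all genes tested were called. The median was -0.17, against 0.01 over all genes. Temozolomide in control cells lowered 4 of the 8, namely LOXL2, LOXL4, PLOD1 and PLOD3, and raised 0, where 27.5% of all genes were called in either direction and 15.8% were lower. The median was -0.18, against 0.00 over all genes. Temozolomide in knockdown cells lowered LOX, LOXL2, LOXL4 and PLOD2 and raised 0, where 22.3% of all genes were called and 13.2% were lower, at a median of -0.16. LOXL2 and LOXL4 were the 2 that fell with the drug in both kinds of cell. Cells with both hairpin and drug, set against cells with neither, had lower LOX (-1.02, SE 0.08, edgeR adjusted p = 8.0e-10), LOXL4 (-0.75, SE 0.05, adjusted p = 6.1e-11), PLOD1 (-0.40, SE 0.03, adjusted p = 5.3e-09) and PLOD2 (-0.17, SE 0.04, adjusted p = 0.000613), 4 of the 8 where 49.9% of all genes were called. The PLOD2 call was lost with library totals (-0.07) and in the FPKM fits (-0.09). These comparisons share groups, so a member's values in them are not independent of each other.

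**Figure D3:**
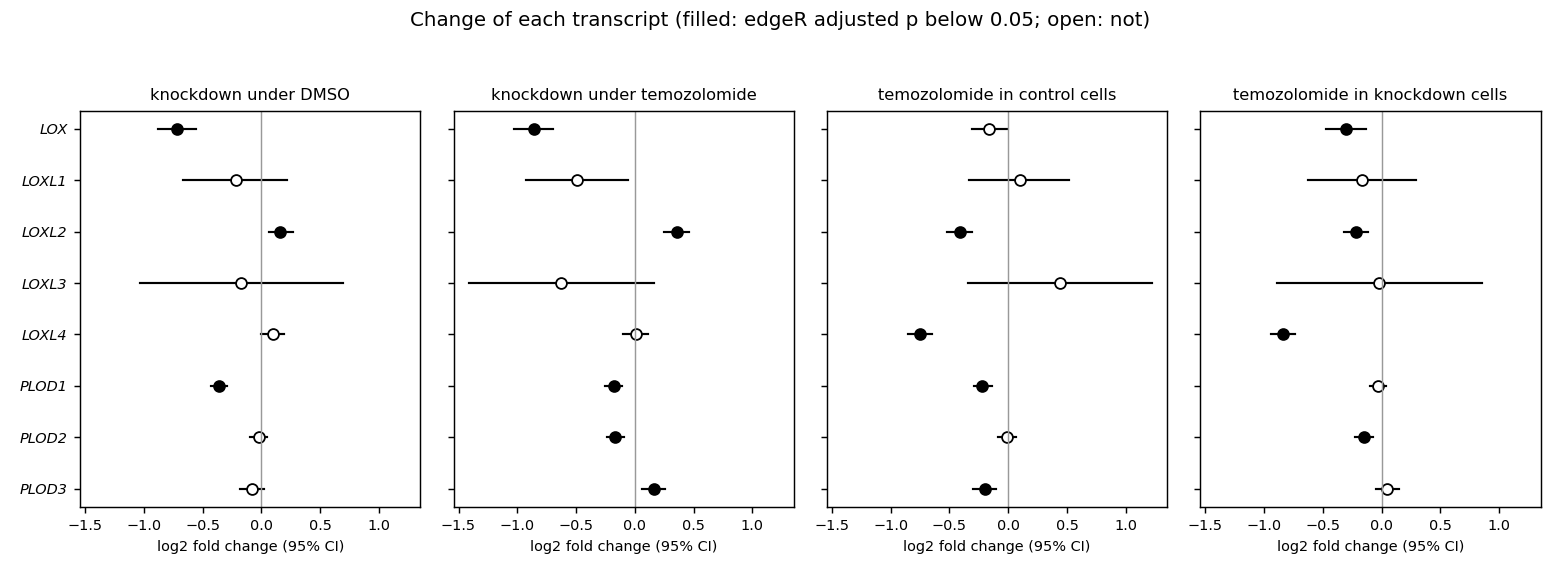
Log2 fold change (x axis) with its 95% confidence interval for each transcript (y axis) in the 4 comparisons of 2 groups; filled points passed an edgeR adjusted p of 0.05 and open points did not. LOX lies at -0.72 and -0.86 in the knockdown panels, LOXL4 at -0.75 and -0.84 in the temozolomide panels, and LOXL1 and LOXL3 have the widest intervals.

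Whether the temozolomide response differed between knockdown and control cells was tested directly as a difference of differences. None of the 8 passed the edgeR adjusted p of 0.05, where 1.05% of all genes were called (135 genes, but 19 to 395 when 1 library was left out). At an unadjusted p below 0.05, a threshold for which no share of all genes was computed, there were 4. They were PLOD1 (0.18, SE 0.05, adjusted p = 0.0640), PLOD3 (0.25, SE 0.07, adjusted p = 0.0707), LOXL2 (0.19, SE 0.07, adjusted p = 0.157) and PLOD2 (-0.14, SE 0.05, adjusted p = 0.171). A positive value means that the level with temozolomide, relative to DMSO, was higher in knockdown than in control cells. DESeq2 called 1, PLOD1, and gave no adjusted p here for LOX, LOXL1 and LOXL3. Limma on log2(FPKM + 1) called 0, with 3 under an unadjusted p of 0.05, again without a share of all genes. PLOD1 was also called without control DMSO library 2 (0.19) or knockdown temozolomide library 3 (0.21) and without the low-count filter (0.17). PLOD3 was called without control temozolomide library 1 (0.28) and without the low-count filter (0.23), and LOXL2 without control temozolomide library 1 (0.25). For LOX the difference was -0.14 (95% interval -0.37 to 0.09) and for LOXL4 it was -0.09 (-0.23 to 0.05).

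Across the 12 libraries, the log2 CPM of LOX had a Pearson r of 0.98 with that of CD44, 0.88 with PLOD1, -0.36 with LOXL2 and 0.23 with LOXL4. For CD44 r was also 0.93 with PLOD1, 0.70 with PLOD2, 0.59 with LOXL1, 0.50 with LOXL3, 0.21 with LOXL4 and -0.37 with LOXL2. It was not computed for CD44 with PLOD3. LOXL2 and LOXL4 had an r of 0.73. After removal of the group means, r was -0.02 for LOX with PLOD1, 0.00 for LOXL2 with LOXL4, 0.23 for LOX with LOXL2 and 0.35 for LOX with LOXL4. The values over all libraries rest on the 4 group means, in part or, for LOX with PLOD1 and LOXL2 with LOXL4, mostly. CD44 is the hairpin's target, and its r with LOX after removal of the group means was not computed. Nor was this done for the closest genes named next. The 3 transcripts most like LOX among 10572 with a mean of at least 5 CPM were NREP (r = 0.993), NNT (0.991) and LDLRAD4 (0.987). Those most like LOXL2 were NCAM1 (0.983), SLCO4A1 (0.968) and VIM (0.963). For LOXL4 they were CHD3 (0.991), CALD1 (0.991) and ALPK2 (0.987), for PLOD1 SORBS3 (0.982), OAF (0.980) and TMEM214 (0.979), and for PLOD2 they were led by IBTK (0.973) and EPHA5 (0.963). PLOD3 and LOXL1 had less close matches, led by ATN1 (0.893) and MID1IP1 (0.893). These pairs were picked for their r in CPM. On log2(FPKM + 1) their r ran from 0.647 (LOXL1 with MID1IP1) to 0.995 (LOXL4 with CALD1), with 0.918 for LOX with NREP.

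Lists of genes around these enzymes are given by counts, to be read against all genes tested. Of those 21.1% rose and 21.4% fell with the knockdown under DMSO, 22.0% and 20.3% with the knockdown under temozolomide, and 11.7% and 15.8% with temozolomide in control cells. The other enzymes and chaperones that modify and fold procollagen were mostly lower with the knockdown. Of 15 tested under DMSO 10 fell and 3 rose, with a median of -0.18, and under temozolomide 9 fell and 4 rose. P4HA1, a catalytic subunit of prolyl 4-hydroxylase, fell by 0.45 on the log2 scale under DMSO (SE 0.04, edgeR adjusted p = 1.5e-08), while its paralogue P4HA2 rose by 0.59 (SE 0.06, adjusted p = 3.2e-08). CRTAP, a partner of prolyl 3-hydroxylase, fell by 0.39 (SE 0.03, adjusted p = 9.7e-10), and TMEM38B, an ion channel of the endoplasmic reticulum, rose by 0.31 (SE 0.07, adjusted p = 0.00193). In the fits to FPKM 5 of the list fell under DMSO in place of 10. Temozolomide in control cells lowered 3 of the 15 and raised 2, where 15.8% and 11.7% of all genes did so. The falls were 1 without control DMSO library 1 or 3 or control temozolomide library 2, and the rises were 1 without control DMSO library 1 or control temozolomide library 2 or 3. The collagen chaperone SERPINH1 fell with the drug in control cells (-0.26, SE 0.05, adjusted p = 0.000591) and in knockdown cells (-0.45, SE 0.06, adjusted p = 4.6e-06). For procollagen processing 1 of 7 tested rose (2 without knockdown DMSO library 1) and 1 fell with the knockdown under DMSO: the C-proteinase enhancer PCOLCE fell with the knockdown (-1.51, SE 0.12, adjusted p = 1.2e-09) and the N-proteinase ADAMTS14 rose (1.77, SE 0.16, adjusted p = 1.6e-08).

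Of the collagens on which these enzymes act, 8 of 16 tested rose and 3 fell with the knockdown under DMSO, with a median of 0.38, and 9 rose and 2 fell under temozolomide. These counts include low transcripts. COL27A1 (group means 1.08 to 2.55 CPM) and COL5A3 (0.0719 to 0.873) rose under both treatments. Under temozolomide COL1A1 (0.990 to 2.07 CPM) and COL5A1 (0.119 to 0.746) also rose. Under DMSO COL3A1 fell (0.744 to 0.249 CPM). The basement membrane chain COL4A2 rose (0.46, SE 0.05, edgeR adjusted p = 2.1e-07), as did the fibrillar COL5A2 (0.39, SE 0.04, adjusted p = 8.0e-08), while COL11A1 fell (-0.49, SE 0.05, adjusted p = 8.6e-08) and COL1A2 fell (-0.22, SE 0.04, adjusted p = 0.000275). Temozolomide lowered COL1A2, a chain of type I collagen, in control cells (-0.92, SE 0.04, adjusted p = 7.2e-12) and in knockdown cells (-0.98, SE 0.05, adjusted p = 5.0e-12). With the drug 4 of the 16 fell and 2 rose in control cells, against 15.8% and 11.7% of all genes. Its partner chain COL1A1 was at 1.35 CPM against 208 CPM for COL1A2 in control DMSO, COL3A1 was at 0.744 CPM and elastin (ELN) at 0.149 CPM; these 3 low substrates were picked out after their values were seen. Among elastic fibre and matrix partners 4 of 15 rose and 7 fell with the knockdown under DMSO (median -0.38). The microfibril protein FBN2 fell (-1.30, SE 0.04, adjusted p = 3.2e-16), as did POSTN (-0.50, SE 0.04, adjusted p = 1.4e-08), a matricellular protein. Temozolomide lowered 6 of the 15 and raised 1 in control cells, with POSTN at -0.67 (SE 0.04) and the glycoprotein TNC at -0.62 (SE 0.03).

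Transcripts of genes for copper supply were also counted, while copper itself was not measured. Of 10 genes tested 3 rose and 3 fell with the knockdown under DMSO. The copper importer SLC31A1 fell (-0.70, SE 0.05, edgeR adjusted p = 1.3e-10), as did ATP7A (-0.62, SE 0.07, adjusted p = 1.5e-07), the pump that loads copper into secreted enzymes, and the metallothionein MT2A rose (0.43, SE 0.06, adjusted p = 8.6e-06). The values were -0.72, -0.60 and 0.59 under temozolomide. AOC1, a copper amine oxidase outside the LOX family that degrades diamines, was at 161 CPM in control DMSO and 36.0 CPM in knockdown DMSO (log2 fold change -2.16, SE 0.05, adjusted p = 2.9e-17), a larger fold change than that of any lysyl oxidase. Of 3 such oxidases tested, 1 was called under DMSO.

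Of 22 genes of the hypoxia response and its regulation, 12 fell and 2 rose with the knockdown under DMSO (median -0.19), and the same numbers under temozolomide (median -0.20). The rises were 1 without knockdown DMSO library 2 and 1 without knockdown temozolomide library 2, respectively. NDRG1, a hypoxia-induced stress gene, fell by 1.06 (SE 0.05, edgeR adjusted p = 1.6e-13), and CA12, a carbonic anhydrase, rose by 0.92 (SE 0.25, adjusted p = 0.00551). With temozolomide in control cells 8 fell and 3 rose, among them VEGFA (-0.48, SE 0.04, adjusted p = 2.2e-08) and the glucose transporter SLC2A1 (-0.47, SE 0.03, adjusted p = 2.5e-09), which fell. Among the rises were HIF1AN (0.16, SE 0.04, adjusted p = 0.00366) and VHL (0.18, SE 0.04, adjusted p = 0.00446), regulators that restrain the response rather than genes it induces. P4HA1 was counted both in this list and among the procollagen genes. Of 16 TGF-beta signalling genes 8 rose and 1 fell with the knockdown under DMSO (median 0.15). CCN2, a matricellular protein induced by TGF-beta, rose by 1.47 (SE 0.08, edgeR adjusted p = 2.5e-12). With temozolomide in control cells 8 of the 16 fell and 4 rose (2 without control DMSO library 1 or control temozolomide library 3), and THBS1 fell by 0.83 (SE 0.04, adjusted p = 1.4e-11). Of 6 tested factors of epithelial-mesenchymal transition, 3 rose and 1 fell with the knockdown under DMSO, and with temozolomide in control cells 5 fell and 0 rose, with VIM at 0.19 (SE 0.03) and -0.42 (SE 0.03). No list was tested as a set.

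**Figure D4:**
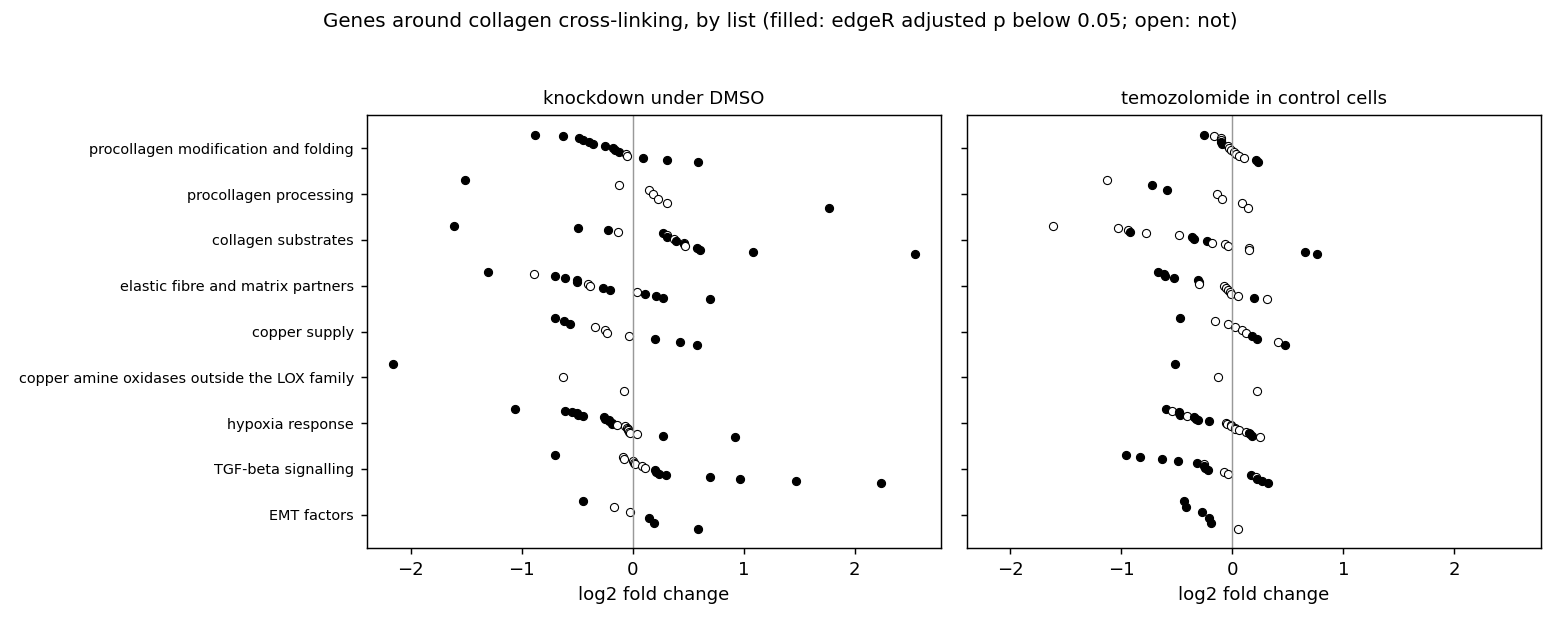
Log2 fold change (x axis) of each tested gene in 9 lists around collagen cross-linking (y axis) for the knockdown under DMSO (left) and temozolomide in control cells (right); filled points passed an edgeR adjusted p of 0.05 and the vertical spread within a list only separates points. Most filled points of procollagen modification lie left of 0 at left (10 of 13), and 5 of 6 tested epithelial-mesenchymal transition factors lie left of 0 and filled at right.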

How the data were processed

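Poly(A) RNA of 12 U251 libraries was measured on a NovaSeq instrument, per the labels. The authors deposited a table of estimated counts per gene, in which 10.7% to 12.0% of the values of a library are fractional, and a table of FPKM, fragments scaled by transcript length and sequencing depth. The tools named, per the submitters' processing notes, were RSEM, StringTie 1.3.1, HISAT2, Bowtie2 2.2.8 and fastp 0.18.0, with no role for any. For the genome build and annotation behind the tables, nothing is given in the sources used here. Locations, overlaps and GC content come from GENCODE annotation of GRCh38 by gene ID, and promoter windows from RefSeq.

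Rounded estimated counts entered edgeR 4.0.16 (R 4.3.3): filterByExpr defaults (12821 of 20289 genes), TMM scaling, and 1 quasi-likelihood model with 4 group means over 12 libraries. P-values are two-sided and were Benjamini-Hochberg adjusted over all genes tested, with calls below 0.05. CPM are TMM-scaled. Levels and shares of summed FPKM are descriptions. The biological coefficient of variation was 3.90%. With library totals of 13.5 to 24.8 (in 1e6 counts), 3 counts are 0.121 to 0.222 CPM, a limit for counting error only.

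Groups were taken from the labels. The members and lists were chosen with earlier results of these data known. Named genes are the 8 members, CD44, up to 2 called genes per list, direction and comparison of 2 groups with the smallest p, and the 3 genes whose log2 CPM (prior count 2) correlated best with a member of at least 1 CPM. The text leaves out some of these. Other settings tried were library totals or relative log expression factors for the scaling, DESeq2 1.42.0, filters (none, or 1 CPM in at least 3 libraries), fits to the compared groups only, a block for the replicate number, leaving out single libraries, limma 3.58.1 on log2(FPKM + 0.1) and on log2(FPKM + 1) with and without the filter, a GC correction (spline with 5 degrees of freedom per library) and a threshold of 0.01.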

Additional observations from a re-analysis of the deposited data

How the results depend on the processing

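Over 24 alternatives, the 20 called results of the 8 transcripts kept direction and call in 455 cases, kept direction but lost the call in 25 and reversed in 0. The 28 uncalled results stayed uncalled with the same sign in 584 cases, became called in 20 and changed sign in 47, all near 0. For the knockdown under DMSO 5 members were called with the GC correction in place of 3. Over all genes it called 5527 of 12782 in place of 5458 of 12821. For temozolomide in knockdown cells each of the 3 FPKM fits called 1 in place of 4. Over all genes those fits called 1875 to 2048 in place of 2854. For the difference DESeq2 called 1 and the fit without a low-count filter 2 in place of 0, and leaving out single libraries gave 0 to 2. The cause was not tested. Over all genes the difference called 135 genes, 337 with DESeq2, 546 without the low-count filter, 222 with the replicate block, 35 with the GC correction, 13 at a threshold of 0.01 and 0 to 3 in the FPKM fits. Leaving out 1 library gave 19 (without control temozolomide 2) to 395 (without control temozolomide 1). It was 22 without control DMSO 1, 272 without control DMSO 2, 25, 67 and 31 without knockdown DMSO 1, 2 and 3, 28 without control temozolomide 3, and 76 and 394 without knockdown temozolomide 1 and 3.

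Sign changes with library totals were LOXL2 and PLOD3 with both against neither (0.05 and 0.07), LOXL3 and PLOD1 with temozolomide in knockdown cells (0.04 and 0.03), and PLOD2 with knockdown under DMSO and temozolomide in control cells (0.02 and 0.06). In the FPKM fits they were LOXL2 and PLOD3 with both against neither (0.03 and 0.08), LOXL3 (0.01 to 0.04) and PLOD1 (0.04) with temozolomide in knockdown cells, and PLOD2 with temozolomide in control cells (0.04). With the GC correction they were LOXL2 (0.01) and PLOD3 (0.05) with both against neither, PLOD3 with knockdown under DMSO (0.03) and the PLOD2 difference (0.02). The LOXL4 knockdown value under temozolomide changed sign with relative log expression factors (0.00), DESeq2 (0.00), the GC correction (0.00), no filter (-0.01) and some single libraries left out (range -0.05 to 0.04). Leaving out 1 library also changed the sign within these ranges: LOXL1 with knockdown under DMSO (-0.47 to 0.01), temozolomide in control cells (-0.03 to 0.19) and in knockdown cells (-0.40 to 0.07), LOXL3 with knockdown under DMSO (-0.33 to 0.02) and temozolomide in knockdown cells (-0.17 to 0.06), and PLOD2 with knockdown under DMSO (-0.05 to 0.00) and temozolomide in control cells (-0.03 to 0.02).

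Library totals moved the median of all genes by 0.104, from 0.013 to 0.117, with both against neither and shifted the split of higher and lower calls, for temozolomide in control cells from 1505 and 2024 to 2870 and 1295. The FPKM fits, also without TMM scaling, moved the median with both against neither by 0.024 to 0.097. With the replicate number as a replicate block the 8 members' calls were 3, 5, 4, 4, 4 and 0, as without it. Equal numbers in different groups gave correlations of -0.0770 to 0.136 (18 pairs), and 6 of 12 libraries were closest to their own number, so no pairing was used. At a threshold of 0.01 LOX with temozolomide in knockdown cells and LOXL2 with knockdown under DMSO were not called. In the FPKM fits, counts in the lists were lower for collagens that rose with knockdown under temozolomide (5 in 1 fit, from 9), copper genes that rose with knockdown under DMSO (1, from 3), TGF-beta and transition genes that fell with temozolomide in control cells (5 from 8, and 3 from 5). DESeq2 gave no adjusted p for some LOXL3 results, nor for the difference of temozolomide responses of LOX and LOXL1. Depth limits LOXL1 and LOXL3.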
